A study of Ovis aries with 15 samples.

Results

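The sheep cathelicidins were followed across fetal kidney cortex on 15 single-colour Agilent ovine arrays, 1 array per fetus. Members were all probes whose name in the scanner files, or whose symbol after an update through RefSeq, is that of a cathelicidin or a beta-defensin. This gave 6 of the 15008 probes, for 4 of the 766 genes with a symbol: CATHL3, BAC5, CATHL1B and SC5. Beta-defensins were not analysed here, since no probe carried such a name. CATHL3 had been chosen by its measured hypoxia against normoxia difference in ketamine-treated fetuses. That difference, and everything that shares its arrays, is therefore given below as a description with no test.

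Cathelicidins are antimicrobial peptides of the innate immune system. Each is made as a precursor with a conserved cathelin domain, and the active peptide at its end is cut free after release. In sheep and cattle they are made by myeloid precursors in bone marrow and stored in the granules of neutrophils, and in humans epithelia of the urinary tract also make the single human cathelicidin. Ruminants carry a cluster of such genes, which differ mainly in the active peptide.

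All 15 fetuses were chronically catheterized at about 125 days of gestation, and the cortex was taken 24 h after the start of a 30 min exposure. Hypoxia ketamine fetuses (4 arrays) had maternal ventilatory hypoxia after ketamine, an anaesthetic that blocks NMDA receptors, given to the fetus at 3 mg/kg 10 min earlier. Hypoxia vehicle fetuses (4 arrays) had the same hypoxia after saline, normoxia ketamine fetuses (4 arrays) had ketamine without hypoxia, and normoxia vehicle fetuses (3 arrays) had saline without hypoxia. The tissue is a whole homogenate, so fewer cells of a type and less RNA per cell cannot be told apart.

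The probes for the 4 genes are 60 bases long and lie over the end of the transcript. One 30-base stretch per gene is shown from the array's own probe sequences, because these genes are close relatives and the stretches let a reader judge how well the probes separate them. Capitals mark AATAAA, the canonical polyadenylation signal.
CATHL3: tctggacggtgaaaAATAAAttctggtgaa
BAC5: agtcagcatccaaaaAATAAAatcttgtgg
CATHL1B: tactggatctgaaaAATAAActcttgtgac
SC5: tctggactctgagaAATAAAttcttgtgag
All 6 probes hold AATAAA on the printed strand, against 5.63% of the 15008 probes. Its reverse complement TTTATT is in 0 of the 6 and in 3.70% of all probes. Between probes of different genes the longest shared run was 7 to 12 bases, and 30 to 41 of 60 bases were identical in the best alignment. The 12-base run joins SC5 and CATHL3. With any probe outside the family the longest shared run was 13 or 14 bases. BAC5 and CATHL1B each have 2 probes that overlap by 59 bases, so the 2 probes of such a gene are not independent. Their levels differed by 0.01 to 0.18 for BAC5 and by -0.13 to 0.08 for CATHL1B over the 15 arrays, on the log2 scale. Below, the brighter probe stands for each of these 2 genes. How far a transcript of one gene binds the probe of another was not tested.

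In the RefSeq annotation of sheep (assembly ARS-UI_Ramb_v3.0, not stated to be the array's build) the 4 genes lie in 1 cluster in the order CATHL1B, CATHL3, BAC5 and SC5. A pseudogene and the protein-coding LOC105607776 lie between CATHL1B and CATHL3, and the non-coding LOC101120785 lies between BAC5 and SC5.

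Some arrays stood apart. Placental lactogen was well above background on 3 arrays (hypoxia ketamine 2 and normoxia ketamine 1 and 2), and hypoxia vehicle 4 and hypoxia ketamine 2 had the lowest mean correlation with the other arrays. For the difference in CATHL3 with hypoxia, values without the 3 or the 2 arrays are given below. For cytokines and receptors, values without hypoxia vehicle 4 are given for hypoxia in vehicle fetuses only.

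All spots of the 6 probes were well above background on all 15 arrays, and none was saturated. SC5 is printed as 5 spots per array, of which 10 of 75 were flagged as outliers and left out. The coefficient of variation between its 5 spots, flagged ones included, was 1.69% to 5.63% by array (median 4.11%). Differences between fetuses were larger. The raw scanner intensity of CATHL3 ran from 189 to 35747, and on the normalised scale it spanned 7.38 log2 units, or 167-fold. The other probes spanned 112-fold (SC5) to 167-fold.

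CATHL3, the precursor of the proline- and arginine-rich peptide that the array calls BAC7.5, is given as the log2 level relative to the 75th percentile of its array. In hypoxia ketamine fetuses 1 to 4 it was 0.07, 4.42, -0.13 and 2.98. In hypoxia vehicle fetuses 1 to 4 it was -1.05, 2.85, 4.86 and -0.21. In normoxia ketamine fetuses 1 to 4 it was -1.62, -2.52, -0.59 and -0.63, and in normoxia vehicle fetuses 1 to 3 it was -0.96, 0.03 and 1.07. Each hypoxic group thus held 2 fetuses with high CATHL3, and the remaining 4 of 8 hypoxic fetuses lay within the range of the 7 normoxic ones (-2.52 to 1.07). The group means were 1.83 ± 2.23 in hypoxia ketamine (SD, n = 4) and 1.61 ± 2.74 in hypoxia vehicle (n = 4). They were -1.34 ± 0.92 in normoxia ketamine (n = 4) and 0.05 ± 1.01 in normoxia vehicle (n = 3). In order of level the groups run hypoxia ketamine, hypoxia vehicle, normoxia vehicle, normoxia ketamine, and the values of each neighbouring pair of groups overlapped.

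BAC5, another proline- and arginine-rich cathelicidin, had the same high fetuses. Its levels were -0.21, 4.21, 0.37 and 3.51 in hypoxia ketamine fetuses and -0.90, 2.98, 5.36 and -0.24 in hypoxia vehicle fetuses. They were -1.05, -1.91, -0.11 and -0.13 in normoxia ketamine fetuses and -0.95, 0.37 and 1.40 in normoxia vehicle fetuses. Again hypoxia ketamine fetuses 2 and 4 and hypoxia vehicle fetuses 2 and 3 lay above all 7 normoxic fetuses.

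CATHL1B encodes the cyclic dodecapeptide, which the array calls DODE. Its levels were 0.14, 4.98, 0.55 and 3.73 in hypoxia ketamine fetuses and -0.54, 3.46, 5.78 and 0.48 in hypoxia vehicle fetuses. They were -1.02, -1.53, -0.10 and 0.32 in normoxia ketamine fetuses and -0.24, -0.53 and 1.72 in normoxia vehicle fetuses. The same 4 hypoxic fetuses lay above all normoxic ones.

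SC5, the precursor of the helical peptide known as SMAP29, had levels of -1.75, 3.34, -0.24 and 2.56 in hypoxia ketamine fetuses and of -2.23, 2.13, 4.58 and -1.45 in hypoxia vehicle fetuses. They were -1.88, -2.11, -0.80 and -1.42 in normoxia ketamine fetuses and -1.97, -0.79 and -0.59 in normoxia vehicle fetuses. For SC5 a further hypoxic fetus, hypoxia ketamine 3, lay above all normoxic ones, so that 5 of 8 did. In normoxia vehicle fetus 3, where all 4 genes had their highest normoxic level, SC5 was 0.91 lower than CATHL3 after each probe was centred on its mean.

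**Figure D1:**
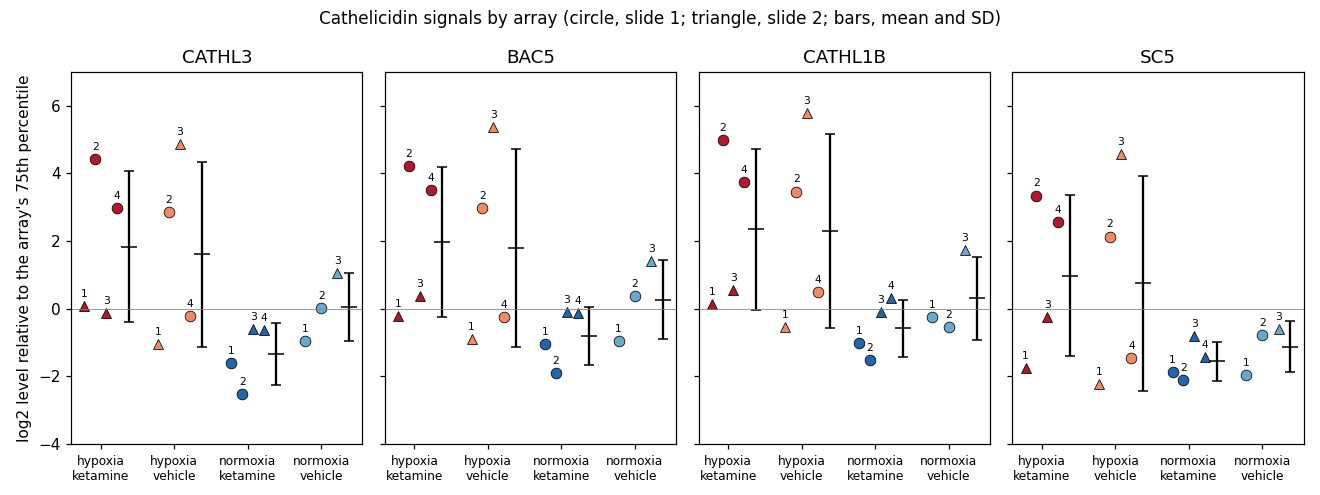
Log2 level of CATHL3, BAC5, CATHL1B and SC5 relative to the 75th percentile of each array, 1 point per fetus with its replicate number, by group. Bars give the mean and SD (n = 4, and n = 3 in normoxia vehicle), and circles and triangles give the 2 slides. Hypoxia ketamine 2 and 4 and hypoxia vehicle 2 and 3 are high in every panel.

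The family moved as 1 block over the fetuses. Pearson's r with CATHL3 over 15 arrays was 0.991 for BAC5, 0.985 for CATHL1B and 0.962 for SC5, as a description, since all 4 are read from the same RNA. The arrays form 4 high and 11 low ones, so the values over the 11 low arrays are given too, and these were 0.953, 0.889 and 0.690. The largest difference from CATHL3 after centring was 1.16 for SC5, in normoxia ketamine fetus 2. The spread was wide in hypoxic fetuses: the SD of CATHL3 within groups was 2.50 in hypoxic and 0.96 in normoxic fetuses, where the median probe had 0.29 and 0.21. The hypoxic SDs of the 6 probes lay at the 99.7th to 99.9th percentile of all 12925 tested probes.

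Hypoxia against normoxia in vehicle fetuses shares no array with the comparison behind the choice of CATHL3, and it was tested with limma across all tested probes. None of the 4 genes passed at the labels' threshold of 0.05 on the unadjusted p, against 5.78% of all tested probes called higher and 16.1% called in either direction (0.0155% after adjustment). CATHL3 was 1.57 ± 1.35 higher in log2 (SE, 4 against 3 arrays, 95% interval -1.35 to 4.49, limma adjusted p = 0.586). The log2 change was 1.53 ± 1.41 for BAC5 (limma adjusted p = 0.611), 1.98 ± 1.43 for CATHL1B (limma adjusted p = 0.507) and 1.88 ± 1.47 for SC5 (limma adjusted p = 0.543). All 4 estimates were positive, but the groups overlapped. For each gene 2 of the 4 hypoxia vehicle fetuses lay above all 3 normoxia vehicle fetuses. For CATHL3 and SC5 hypoxia vehicle 1 lay below all 3, as at -1.05 against a lowest normoxia vehicle CATHL3 level of -0.96. For CATHL1B it did so at the brighter probe only, and barely (-0.543 against -0.535). The differences lay within the spread between fetuses. An exact permutation test over the 7 arrays, two-sided, gave p = 0.457 for CATHL3, where the smallest p it allows is 0.0286. The size of the CATHL3 estimate rested on single fetuses: it was 0.49 without hypoxia vehicle 3 and 2.45 without hypoxia vehicle 1. Without hypoxia vehicle 4 and hypoxia ketamine 2 it was 2.17.

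Within the slides the CATHL3 difference in vehicle fetuses was 1.78 on slide 1 (hypoxia 2 and 4 against normoxia 1 and 2) and 0.84 on slide 2 (hypoxia 1 and 3 against normoxia 3). CATHL1B passed the threshold on slide 1 alone (2.36) and had 0.90 on slide 2. The 2 slides each held fetuses with high and with low cathelicidins.

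In ketamine fetuses CATHL3 was 3.17 ± 1.25 higher in log2 with hypoxia, or 9.03-fold (SE, n = 4 each, 95% interval 0.47 to 5.88). This is the value behind the choice of the gene and is given without a test, so its interval is not to be read as one. All 4 hypoxia ketamine fetuses lay above all 4 normoxia ketamine fetuses for CATHL3, as did the groups of 2.83% of all probes with a value on each of these arrays, and 3.71% of tested probes were called higher and 8.67% in either direction. The changes were 2.77 ± 1.30 for BAC5, 2.93 ± 1.33 for CATHL1B and 2.53 ± 1.36 for SC5. For these 3 genes the groups overlapped, and 3 of 4 hypoxia ketamine fetuses lay above all normoxia ketamine fetuses.

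The ketamine difference differed between the slides. For CATHL3 it was 5.77 on slide 1, where hypoxia ketamine 2 and 4 were set against normoxia ketamine 1 and 2. It was 0.58 on slide 2, where hypoxia ketamine 1 and 3 were set against normoxia ketamine 3 and 4. With the slide as a block it was 3.17. The pattern was alike for BAC5 (5.34 and 0.20), CATHL1B (5.63 and 0.23) and SC5 (4.94 and 0.12).

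Placental lactogen (LOC443319), a hormone of the placenta, was well above background on 3 arrays, all of ketamine fetuses. Its log2 level was -6.18 in hypoxia ketamine 2, -2.97 in normoxia ketamine 1 and -3.30 in normoxia ketamine 2. These are the fetus with the highest CATHL3 of its group and the 2 with the lowest CATHL3 of theirs, all on slide 1. Without the 3 arrays the CATHL3 difference in ketamine fetuses was 1.59 ± 1.57, and without hypoxia vehicle 4 and hypoxia ketamine 2 it was 2.31 ± 1.21. The part of placental RNA in the result was not tested.

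Ketamine against vehicle in hypoxic fetuses gave 0.22 ± 1.25 for CATHL3 in log2 (SE, 95% interval -2.48 to 2.92). The changes of the other 3 genes were 0.17 ± 1.30 for BAC5, 0.05 ± 1.33 for CATHL1B and 0.22 ± 1.36 for SC5. The sign of the CATHL3 value turned with the slide (2.38 on slide 1 and -1.94 on slide 2), without hypoxia vehicle 1 (-0.67), without the 3 arrays with placental lactogen (-0.64) and without the 2 arrays least like the others (-1.25). These 2 arrays had mean correlations of 0.968 (hypoxia ketamine 2) and 0.955 (hypoxia vehicle 4) with the others.

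In normoxic fetuses the log2 change with ketamine was -1.39 ± 1.35 for CATHL3, -1.07 ± 1.41 for BAC5, -0.90 ± 1.43 for CATHL1B and -0.43 ± 1.47 for SC5. The CATHL3 value was -0.66 without the 3 arrays with placental lactogen. The hypoxia by ketamine interaction, the ketamine-arm difference minus the vehicle-arm difference, was 1.61 ± 1.85 for CATHL3 with an interval of -2.37 to 5.58. It was 0.02 without the 3 arrays with placental lactogen, 0.14 without the 2 arrays least like the others, and 3.98 on slide 1 against -0.26 on slide 2. These comparisons share arrays with the one behind the choice of CATHL3, so no test is given for the family. The interaction was called for 3.15% of all tested probes.

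**Figure D2:**
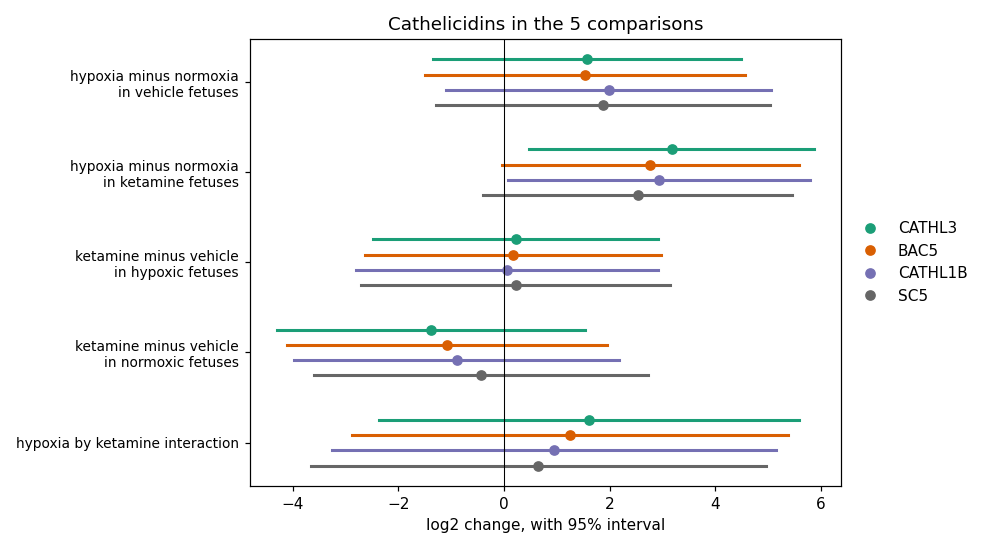
Log2 change of the 4 cathelicidins (points) with 95% intervals (lines) in the 5 comparisons, from the limma fit over 15 arrays. Estimates for hypoxia are positive in both arms, and the vehicle intervals all cross 0. With hypoxia in ketamine fetuses the intervals were -0.03 to 5.58 for BAC5, 0.08 to 5.79 for CATHL1B and -0.40 to 5.46 for SC5. The BAC5 probe not drawn had 0.02 to 5.66. The CATHL3 interval there belongs to the value behind its choice. The other 3 genes share its arrays, so none of these intervals is a test. The estimates for ketamine against vehicle in hypoxic fetuses lie between 0.05 and 0.22.

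Genes of neutrophils, the cells that store cathelicidins, were followed beside them. Of 38 listed neutrophil genes 8 had a named probe. By the brightest probe of each gene 0 rose and 0 fell in each of the 5 comparisons by the unadjusted limma p, where 16.1% of all tested probes were called with hypoxia in vehicle fetuses, 8.67% with hypoxia in ketamine fetuses, 6.07% and 2.71% with ketamine in hypoxic and in normoxic fetuses, and 3.15% for the interaction. CYBB, a subunit of the phagocyte oxidase, passed with hypoxia in ketamine fetuses at its other probe, by 1.33 ± 0.55, against 1.37 at the brightest. The median log2 change of the 8 was 0.45 with hypoxia in vehicle fetuses and 1.03 in ketamine fetuses, where the median over all tested probes was -0.05 and -0.02. LTF encodes lactoferrin, an iron-binding protein of neutrophil granules. Its log2 levels were -4.40, -0.29, -4.49 and -1.54 in hypoxia ketamine fetuses and -4.58, -1.62, 0.80 and -4.36 in hypoxia vehicle fetuses. They were -4.09, -5.71, -3.78 and -4.11 in normoxia ketamine fetuses and -4.44, -3.70 and -1.98 in normoxia vehicle fetuses. LTF was thus high in the 4 fetuses with high cathelicidins, and its highest normoxic level was in normoxia vehicle 3, as for CATHL3. ITGB2, the beta chain of leukocyte integrins, was 0.99 and -0.14 in hypoxia ketamine fetuses 2 and 4 and 0.27 and 1.18 in hypoxia vehicle fetuses 2 and 3. It was -1.63 to -0.74 in all 11 other fetuses. ITGAM, its partner chain on myeloid cells, was well above background on 3 of 15 arrays at each of its 2 probes, as was MMP9, a granule protease. Averaged over the 8 genes, the deviation from each probe's mean ranged from -0.30 to 1.60 in hypoxia ketamine, -1.09 to 1.69 in hypoxia vehicle, -0.62 to -0.25 in normoxia ketamine and -0.70 to 0.24 in normoxia vehicle fetuses. The part of neutrophil number in the cathelicidin levels was not tested.

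Over 665 named genes, LTF had the highest correlation with CATHL3 across the 15 arrays (r = 0.963, Spearman's rho = 0.818). It was 0.985 for deviations within groups, 0.919 without hypoxia vehicle 3 and hypoxia ketamine 2, the 2 arrays farthest from the median of CATHL3, and 0.792 over the 11 low arrays. ITGB2 came next (r = 0.932, with 0.937 for its other probe). After these 2 came ADORA3, an adenosine receptor (0.882), CTSS, a lysosomal protease of antigen-presenting cells (0.871), FCER1G, a signalling chain of Fc receptors (0.867), IL10, an anti-inflammatory cytokine (0.861), CD86, a costimulatory protein (0.860), SLC11A1, a metal transporter of phagocytes (0.857), PTGS1, a cyclooxygenase (0.845) and CD3D, a T cell receptor chain (0.823). Over the 11 low arrays the 9 genes after LTF had r of 0.276 to 0.496, so their rank rests largely on the 4 high arrays. The 5 lowest correlations were those of CPE (-0.827), NTN4 (-0.786), YEATS4 (-0.688), SRP14 (-0.684) and ITM2B (-0.683). These are descriptions over arrays that share 1 tissue sample per fetus, and they say nothing of shared control.

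Other antimicrobial proteins with a probe were SLPI and PI3, which inhibit neutrophil proteases, SLC11A1, and NOS2, an inducible nitric oxide synthase. Of these 4, 0 rose and 0 fell in each of the 5 comparisons (limma, unadjusted p). With hypoxia in vehicle fetuses SLC11A1 had a log2 change of 1.16 ± 0.91 and SLPI of -0.43 ± 0.80.

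Receptors for these peptides or for bacterial products made up the next list. Of 6 with a probe, 3 rose with hypoxia in vehicle fetuses (5.78% of all probes were called higher): TLR2, a receptor for bacterial lipoproteins, by 2.04 ± 0.62, TLR4, the endotoxin receptor, by 1.15 ± 0.47, and CD14, its co-receptor, by 0.95 ± 0.31. The adjusted limma p was 0.173, 0.260 and 0.192, so none passed after adjustment. TLR4 lost its call without normoxia vehicle 1 (0.97), normoxia vehicle 2 (1.102) or hypoxia vehicle 4 (0.68), and on slide 2 (0.24). CD14 did not pass on either slide alone (0.91 and 0.88). With ketamine in hypoxic fetuses TLR2 and TLR4 fell by 1.66 and 0.94 in log2, where 3.49% of all probes were called lower and 6.07% in either direction. Neither passed after adjustment. EGFR, IGF1R and CXCR4 did not pass in any of the 5 comparisons.

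The inducer list held cytokines, signalling genes and vitamin D genes tied to the induction of antimicrobial peptides. It is not a list of inducers alone, since it also holds NFKBIA, IL10 and CYP24. By the brightest probe of each gene, 9 of 13 tested rose with hypoxia in vehicle fetuses, where 5.78% of all tested probes were called higher. None passed after adjustment. IFNG, a cytokine of T and NK cells, passed at its other probe (2.65 ± 1.17) and had 0.74 at the brightest. That other probe was well above background on only 3 of 15 arrays. TNF, a cytokine, rose by 4.05 ± 0.67 and IL1B by 3.56 ± 0.78 (limma adjusted p = 0.0655 and 0.128). CXCL8, a neutrophil attractant, rose by 4.56 ± 1.24, and NFKBIA, the NF-kappaB inhibitor, by 2.55 ± 0.54 (limma adjusted p = 0.164 and 0.114). IL1A, MYD88, CEBPB and CYP24 also passed. On slide 1 and slide 2 these changes were 4.53 and 3.51 for TNF, 3.66 and 3.43 for IL1B, 4.69 and 4.40 for CXCL8 and 2.83 and 2.17 for NFKBIA, and on slide 2, with 1 normoxia vehicle array, TNF alone of these 4 passed. IL6 passed with 2 of 4 hypoxia vehicle arrays and 0 of 3 normoxia vehicle arrays well above background, and was at least 26.9-fold higher (limma adjusted p = 0.173). This bound was 7.94-fold without hypoxia vehicle 4, 11.9-fold without hypoxia vehicle 1, 73.2-fold without hypoxia vehicle 3 and 75.5-fold without hypoxia vehicle 2. Without hypoxia vehicle 4 the log2 change was 3.49 for TNF, 3.12 for IL1B, 3.66 for CXCL8, 2.10 for NFKBIA, 2.41 for IL1A and, among the receptors, 1.56 for TLR2, and each still passed. In ketamine fetuses 2 of 13 rose with hypoxia, where 3.71% of all tested probes were called higher, TNF by 1.52 ± 0.62 and CYP24, the enzyme that inactivates vitamin D, by 2.19 ± 0.97. Neither passed after adjustment. CYP24 was well above background on 3 of 4 hypoxia ketamine, 4 of 4 hypoxia vehicle, 2 of 4 normoxia ketamine and 1 of 3 normoxia vehicle arrays. The TNF call was lost without normoxia ketamine 3 (1.38) or 4 (1.41) and without hypoxia ketamine 2 (0.92) or 4 (1.50). The CYP24 call was lost without normoxia ketamine 2 (2.03) or 4 (1.77), without hypoxia ketamine 1 (1.94) or 2 (1.61), and without normoxia vehicle 1, where its value stayed at 2.19. With ketamine in hypoxic fetuses 6 of 13 fell, among them TNF (-2.65 ± 0.62) and CXCL8 (-3.31 ± 1.15), where 3.49% of all tested probes were called lower. None of the 13 passed after adjustment. The cathelicidin values in this comparison were 0.05 to 0.22. The difference between these genes and the cathelicidins was not tested. In normoxic fetuses 0 of the 13 passed with ketamine, where 2.71% of all probes did.

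In hypoxia vehicle fetuses CXCL8, IL1B and TNF were highest in the 2 fetuses with the lowest cathelicidins, while IL10 and the ketamine arm had other patterns. In this group IL6 was well above background in the same 2 fetuses alone. CXCL8 was 3.00 in both hypoxia vehicle 1 and hypoxia vehicle 4, where CATHL3 was -1.05 and -0.21. It was -2.23 and -2.58 in hypoxia vehicle 2 and 3, where CATHL3 was 2.85 and 4.86. IL1B followed the same split, with 0.93 and 0.23 in hypoxia vehicle 1 and 4 and -2.24 and -3.22 in hypoxia vehicle 2 and 3. IL10 had the opposite one, and its highest levels were -2.70 in hypoxia ketamine 2, -3.27 in hypoxia vehicle 3 and -3.72 in hypoxia vehicle 2, all with high CATHL3. In hypoxia ketamine 4, also with high CATHL3, IL10 was -5.54, below -5.14 in hypoxia ketamine 1. IL10 was well above background on 11 of 15 arrays. Its other probe was so on 4, and had r with CATHL3 of 0.727 over 15 arrays and -0.316 over the 11 low ones. Averaged over the 13 tested genes of the inducer list, the deviation from each probe's mean was 2.55, 0.58, 0.40 and 3.01 in hypoxia vehicle fetuses 1 to 4. In hypoxia ketamine fetuses it was highest in fetus 2 (1.24), which also had the highest CATHL3 of its group. The correlation with CATHL3 over the 15 arrays was 0.861 for IL10, 0.41 for TNF, 0.12 for IL1B and 0.07 for CXCL8, and within groups it was 0.849, -0.01, -0.53 and -0.53, as a description.

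**Figure D3:**
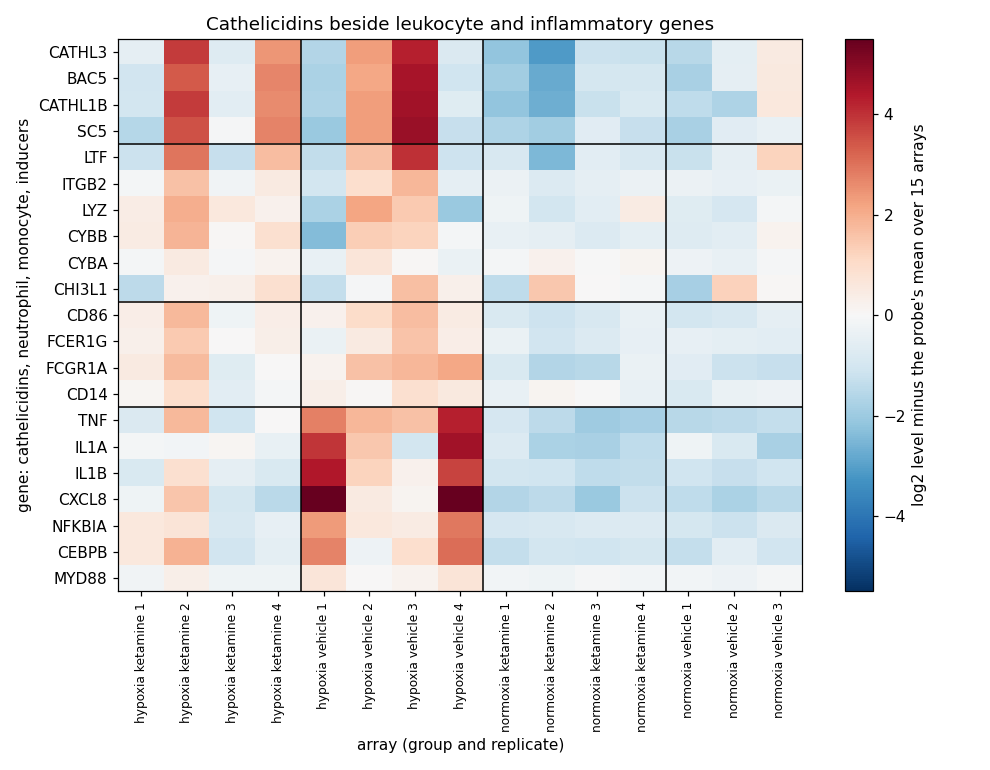
Log2 level minus the mean of the probe over 15 arrays (colour) by array. Rows are the cathelicidins, 6 of 8 neutrophil genes, 4 monocyte genes and 7 of 13 genes of the inducer list, from top to bottom. The 7 were picked from the 9 that rose with hypoxia in vehicle fetuses, and IL10 is not shown. The 4 hypoxic arrays with high cathelicidins are also high for LTF and ITGB2, while TNF, IL1B and CXCL8 are highest in hypoxia vehicle 1 and 4.

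**Figure D4:**
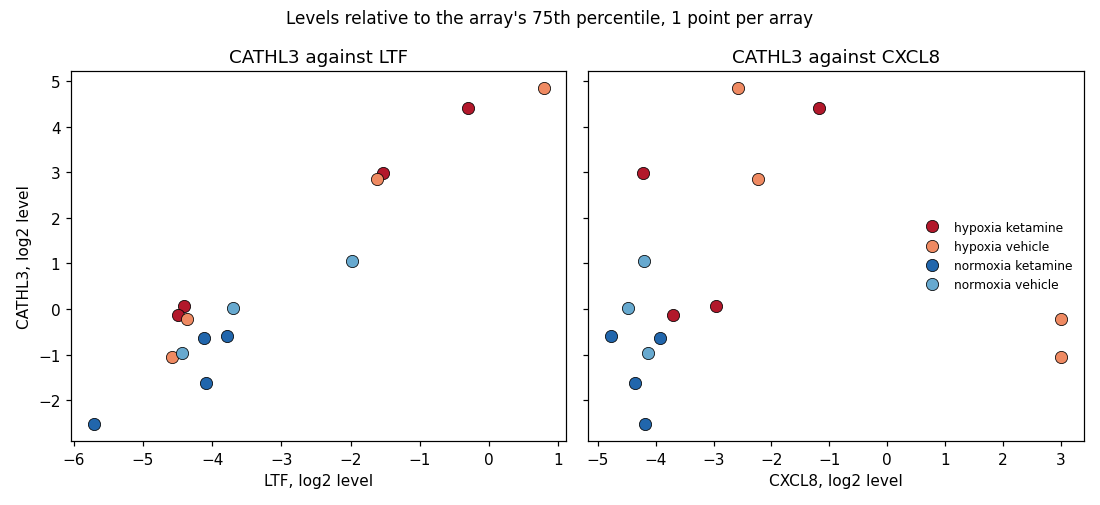
CATHL3 against LTF and against CXCL8, as log2 levels relative to the 75th percentile of each array, 1 point per array and coloured by group. CATHL3 rises with LTF (r = 0.963), while the 2 arrays with CXCL8 at 3.00 have CATHL3 of -1.05 and -0.21.

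Markers of other cells were set beside the family. Of 9 kidney markers with a probe, such as SLC34A1, the phosphate transporter of the proximal tubule, 8 were well above background on all arrays, and EPO was on 14. All 4 monocyte and macrophage genes (CD14, CD86, FCGR1A and FCER1G) rose with hypoxia in vehicle fetuses and 3 of 4 in ketamine fetuses. CD86 rose by 1.65 ± 0.42 and 1.38 ± 0.39. Of all tested probes 5.78% and 3.71% were called higher in these 2 comparisons, and none of the 4 genes passed after adjustment. Their mean deviation ranged from -0.37 to 1.50 in hypoxia ketamine, 0.10 to 1.50 in hypoxia vehicle, -0.91 to -0.40 in normoxia ketamine and -0.73 to -0.65 in normoxia vehicle fetuses. For T and NK cells 0 of 5 tested genes passed with hypoxia in either arm by the brightest probe of each gene. GNLY, a granule protein of these cells, had 0.42 and 0.18 there in vehicle and ketamine fetuses, while another of its probes rose by 3.27 and 2.84, and its remaining probe rose by 2.98 in ketamine fetuses. CD4 was well above background on no array. The mean deviation of the 5 tested genes was highest in hypoxia vehicle 3 (1.06), hypoxia ketamine 2 (0.69) and hypoxia vehicle 2 (0.44), all with high CATHL3. It was -0.01 in hypoxia ketamine 4, also with high CATHL3. The B cell gene CR2 and the 3 erythroid genes did not pass in either arm. CR2 deviated most in hypoxia vehicle 3 (1.85) and 2 (0.68), and had -0.02 and -0.24 in hypoxia ketamine 2 and 4. The erythroid deviation was highest in hypoxia ketamine 2 (1.78), the group's highest array for CATHL3, and was -0.86 to 0.17 in the other 3 hypoxia ketamine fetuses. SELP, a selectin of platelets and activated endothelium, rose by 4.85 in vehicle fetuses, and its level was highest in hypoxia vehicle 4 (1.95), where CATHL3 was -0.21. KDR, an endothelial receptor, fell with hypoxia in both arms, and SELE was well above background on 2 arrays. The parts of these cells in the cathelicidin levels were not tested.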

How the data were processed

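Total RNA was labelled with Cy3 and read on Agilent arrays. Per the file headers, Agilent Feature Extraction 10.1.1.1 made the deposited intensity values (gProcessedSignal), background subtracted and on a linear scale with no scaling between arrays. The authors' deposited table holds log2 values of 11705 probes, with column medians of 8.98 to 8.99. Their centring and the filter behind them stay unknown. The submitters' processing notes name limma. Of its 15 columns, 12 tracked another array of their own group best, so replicate numbers follow the scanner files, and the table served as an alternative only.

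Intensities were taken as log2, minus the log2 of the array's 75th percentile (1064 to 1425 in signal). Control spots and outlier flags were left out, and spots were averaged by probe. On each array 75.7% to 85.2% of probes were well above background, and the 12925 probes so called on at least 3 arrays were tested with limma 3.58.1 (R 4.3.3). All 15 arrays entered 1 fit with 4 group means and a shared variance (11 residual and 2.4 prior degrees of freedom), two-sided, with Benjamini-Hochberg adjustment. The variance was larger in hypoxic fetuses, which a shared variance does not model. The fit was tested on simulated data. The number of arrays limits the precision.

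Names came from the scanner files, with 727 probes named through RefSeq accessions; 1221 probes (8.14%) had a symbol. Named genes were the family, the genes of the lists that have a probe, and the 10 highest and 5 lowest correlations with CATHL3. For genes with several probes the brightest was used. Members and lists were chosen with earlier results of these data known. IL6 was bounded by giving each normoxic array at least its lowest signal well above background. Slides and replicate numbers were tried as blocks. Same-numbered arrays of different groups did not deviate together (mean r = 0.03 over 21 pairs), and the design was taken as unpaired. Since the replicate numbers are uncertain within groups, this check cannot exclude a pairing.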

Additional observations from a re-analysis of the deposited data

Results flagged for a closer look

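No cathelicidin probe had a fetus far from the rest of its group by Dixon's ratio. Among the other named genes 111 groups of 4 were checked, and chance alone flags some of them. In normoxia ketamine 2 CXCL1, a neutrophil attractant, had a log2 level of 7.59, apart from 7.14 to 7.20 in the other 3 fetuses of the group. In hypoxia ketamine 2 MYD88, an adaptor of Toll-like receptors, had -3.18, apart from -3.74 to -3.67. Hypoxia against normoxia differed between the ketamine and vehicle arms, by the unadjusted limma interaction test, for TLR4 (-1.46), TNF (-2.53), IL1B (-2.66) and NFKBIA (-1.74) in log2, each smaller in ketamine fetuses. Of all tested probes 3.15% passed this test, and none passed after adjustment.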

How the results depend on the processing

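No cathelicidin value reversed a call, and in vehicle fetuses the 4 genes stayed short of the threshold under each alternative run, except CATHL1B on slide 1 (2.36). The CATHL3 difference on slides 1 and 2 was 5.77 and 0.58 with hypoxia in ketamine fetuses and 2.38 and -1.94 with ketamine in hypoxic fetuses, and the interaction was 3.98 on slide 1; the cause was not tested. Leaving out 1 array at a time, CATHL3 ranged from 0.49 to 2.45 with hypoxia in vehicle fetuses, 2.31 to 3.83 with hypoxia in ketamine fetuses, -0.67 to 1.30 and -1.89 to -0.88 with ketamine in hypoxic and in normoxic fetuses, and 0.72 to 2.69 for the interaction. With the replicate block CATHL3 was 1.56 with hypoxia in vehicle fetuses and 3.17 in ketamine fetuses, and among the named genes the call of TLR4 (0.998) was lost. Quantile scaling, normexp background and the deposited values gave 1.57, 1.54 and 1.54 for CATHL3 in vehicle fetuses and 3.13, 3.01 and 3.06 in ketamine fetuses. Calls numbered 26 for the receptor and inducer genes over the 5 comparisons, with none for the neutrophil and antimicrobial genes or for BAC5, CATHL1B and SC5 in vehicle fetuses, against 12 on slide 2, which has fewer arrays, and 21 to 38 with 1 array left out. MYD88 lost its call under normexp (0.28). The 2 sets of arrays left out for placental lactogen or for low correlation were chosen after seeing the data. Signal over background limited ITGAM, MMP9, IL6, CYP24, IL10 and the other probe of IFNG, while the cathelicidins were well above background on all arrays.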
